A study of Mus musculus with 18 samples.

Results

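The 10 genes described here are the immediate early genes Egr1, Egr2, Egr3, Nr4a1, Nr4a3, Fos, Fosb, Jun, Junb and Ier2. They were taken by symbol from the 55487 Ensembl genes counted in each library. Expression was measured by RNA sequencing in WEHI-231 cells, a murine B cell lymphoma line that dies upon engagement of its B cell receptor (BCR). Parental cells and the TFEB-deficient mutants #A-59 and #B-20 were taken without treatment (0 h) or after 6 or 18 h of BCR stimulation with anti-IgM, given as F(ab')2 at 10 µg/ml, and each of these 9 groups comprised 2 libraries from separate experiments. TFEB is a basic helix-loop-helix transcription factor. The mutants were raised by electroporation of Cas9 with crRNAs against murine Tfeb and single-cell dilution, so that each genotype other than parental is 1 clone and a difference from parental cells cannot be told apart from a difference between clones of the line.

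Immediate early genes need no new protein synthesis for their transcription. Antigen receptor signals reach them through Ras, ERK and JNK kinases and through calcium, which act on serum response factor (SRF) with its ternary complex partners of the ELK family and on CREB. Egr1, Egr2 and Egr3 encode zinc finger transcription factors, Nr4a1 and Nr4a3 encode orphan nuclear receptors, and Fos, Fosb, Jun and Junb encode subunits of AP-1. Ier2 encodes a small nuclear protein. In B cells Nr4a1 is widely used as a reporter of antigen receptor engagement, and the mRNAs of the whole class are typically short-lived, so that induction peaks well before the first stimulated time measured here. The values at 6 and 18 h therefore describe what remained or returned late after stimulation, and no earlier time was analysed here.

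For 7 of the 10 genes windows of the RefSeq set of promoters (GRCm38.p6) were used, and the 250 bases before each start were searched on both strands. Egr3 and Ier2 had no window in this set, and the promoter of Egr1 was not searched. The motifs were the CArG box bound by SRF, the full CRE (TGACGTCA), its core TGACG, the AP-1 site TGACTCA, the EGR site GCGTGGGCG and the E-box CACGTG, which is a TFEB-type site. The core TGACG is part of the full CRE, and no other pair of these motifs shares its letters. The 4 promoters below are printed because these genes carried large spreads or changes described further on and because CRE cores stand in them. Within the 250 bases searched, only Egr2 of the 4 genes also had a CArG box. Bases further upstream were not searched. Capitals mark a CArG box or a CRE core, and each run stops before the first base of the canonical transcript.

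Egr2 (chr10:67537619-67537861, + strand): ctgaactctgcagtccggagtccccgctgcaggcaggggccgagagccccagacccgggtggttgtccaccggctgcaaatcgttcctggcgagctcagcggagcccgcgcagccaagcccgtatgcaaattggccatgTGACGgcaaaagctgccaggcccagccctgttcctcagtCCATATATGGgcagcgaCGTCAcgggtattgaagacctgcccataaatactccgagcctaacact

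Fos (chr12:85473640-85473883, + strand): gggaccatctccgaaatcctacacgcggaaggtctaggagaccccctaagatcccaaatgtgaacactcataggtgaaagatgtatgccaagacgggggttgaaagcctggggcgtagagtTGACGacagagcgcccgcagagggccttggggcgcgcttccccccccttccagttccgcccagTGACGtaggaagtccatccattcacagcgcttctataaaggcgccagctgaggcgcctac

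Nr4a1 (chr15:101266596-101266778, + strand): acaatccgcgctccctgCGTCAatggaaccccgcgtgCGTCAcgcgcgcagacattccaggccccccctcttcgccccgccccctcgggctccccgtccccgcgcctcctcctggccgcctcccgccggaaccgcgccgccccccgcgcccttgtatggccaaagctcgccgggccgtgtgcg

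Nr4a3 (chr4:48045055-48045152, + strand): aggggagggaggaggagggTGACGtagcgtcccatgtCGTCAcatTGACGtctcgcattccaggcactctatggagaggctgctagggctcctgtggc

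Upstream of the Egr2 start at base 67537869 a CArG box lay at -72 to -63 and CRE cores at -111 to -107 and -55 to -51. A further start of Egr2 at base 67537566 also had a CArG box at -72 to -63. CRE cores were counted 2 times before Fos, 4 times before Nr4a1 (2 of them in the printed run), 4 times before Nr4a3 (3 in the printed run) and 1 time each before Fosb and Junb, and 0 times before Jun. The cores of Nr4a1 and Nr4a3 outside the printed runs overlap the canonical transcript, whose first base lies upstream of the start used. Among all 32851 promoter windows 17.77% held a CRE core and 1.47% a CArG box. The full CRE, the AP-1 site and the EGR site were in 0 of the windows of these 7 genes, against 1.55%, 4.46% and 0.54% of all windows. An E-box was found only in the window of an upstream Egr2 start (base 67535499, at -27 to -22) among these genes, and in 6.02% of all windows. The matches describe letters in these windows and no binding was measured.

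All 10 genes passed the filter on low counts, and none had a library at 0 counts. Totals per library ranged from 11223588 to 29655262 counts, and the smallest count of any of the 10 genes was 5, for Nr4a3. Tfeb itself, which checks the labels, lay at 79.2 to 99.9 CPM (counts scaled to library size by TMM) in the 6 parental libraries, at 25.5 to 40.5 CPM in #A-59 and at 34.2 to 54.1 CPM in #B-20, so that the mutants retained Tfeb mRNA at a lower level. The B cell markers Cd79a, Cd79b, Pax5 and Ebf1 were detected in every library. The B cell marker Ms4a1 was higher at 18 h than untreated, by 2.25 on the log2 scale in parental cells, whereas #A-59 had 2.73 and #B-20 had 1.45, the last of which was lost without library 1 of untreated #B-20 (edgeR adjusted p = 0.0194). The summed level of 14 markers of other cell types was 37.4 to 103.7 CPM at 0 h, 52.65 to 114.1 CPM at 6 h and 92.68 to 233.6 CPM at 18 h, most of it Pecam1 (20.2 to 160 CPM), Epcam (9.81 to 41.0 CPM) and Itgam (0.306 to 26.3 CPM), while Hbb-bs was at 0 counts in 18, Lyz2 in 16, Cd3e in 10 and Cd8a in 10 of the 18 libraries. The summed level of 9 heat shock genes was 925.2 to 1179 CPM at 0 h, 946.2 to 1370 CPM at 6 h and 422.1 to 663.6 CPM at 18 h. Both sums moved with time, and the sum of other cell types also moved with the clone. At 0 h it was 37.4 and 40.34 CPM in parental cells, 103.7 and 97.13 CPM in #A-59 and 60.57 and 57.66 CPM in #B-20, and Itgam was called higher in 5 and Pecam1 in 3 of the 6 comparisons of the clones with parental cells. The part of these markers in the differences between times and between clones described below was not tested.

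Compared per length of the canonical transcript, Junb and Ier2 were the most abundant of the 10 genes, with medians over the 18 libraries of 55.7 and 38.5 CPM per kb. Nr4a1 followed with a median of 8.94 CPM per kb, then Egr1 with 4.66, Egr3 with 3.40 and Jun with 1.08. The scarcest were Egr2 with 0.820, Fos with 0.469, Fosb with 0.216 and Nr4a3 with 0.198 CPM per kb. The ranges of Egr1 (0.228 to 20.5), Egr3 (1.18 to 9.45) and Nr4a1 (5.00 to 18.5 CPM per kb) overlapped, whereas each library of Junb and of Ier2 was above every library of the other 8 genes. The genes also differed in how far they ranged. Egr1 went from 1.03 to 92.2 CPM, Junb from 81.4 to 168 CPM.

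**Figure D1:**
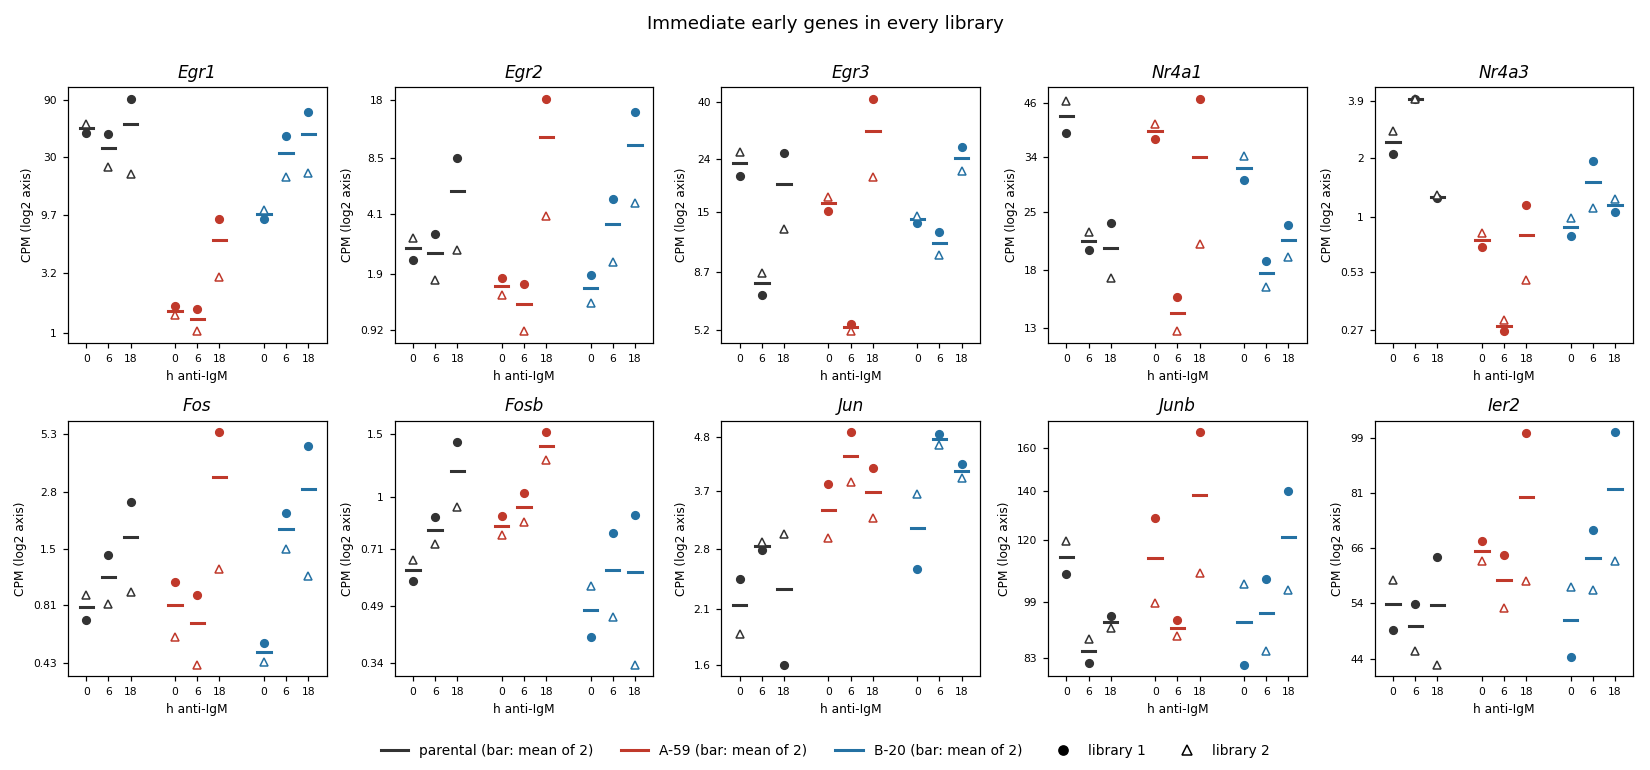
TMM-scaled CPM (log2 axis) of the 10 immediate early genes in each of the 18 libraries, against hours of anti-IgM; filled circles are library 1, open triangles library 2 and bars the mean of the 2 libraries. Egr1 is lowest in #A-59 at every time, and Nr4a3 is highest in parental cells at 6 h (3.98 and 3.97 CPM). Egr3 and Nr4a1 are lower at 6 h than at 0 h in every genotype, least so in #B-20, where neither was called.

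The 2 libraries of a stimulated group differed more for several of these genes than those of an untreated group, and in a shared direction. In parental cells at 18 h Egr1 was at 92.2 and 21.4 CPM in library 1 and library 2. Fos in #A-59 at 18 h was at 5.40 and 1.21 CPM, and Egr2 in the same group at 18.2 and 4.04 CPM. Egr1, Egr2, Fos, Fosb and Ier2 were higher in library 1 than in library 2 in all 6 stimulated groups, which are 5 of the 10 genes. Of all 15318 genes tested, 3.11% were higher in library 1 in all 6 groups. Egr3, Nr4a1 and Junb were so in 5, Jun in 4 and Nr4a3 in 3 of the 6. In the 3 untreated groups library 1 was higher in 0 groups for Egr3, Nr4a1 and Nr4a3, in 1 group for Egr1, Fosb, Junb and Ier2, and in 2 groups for Egr2, Fos and Jun. The labels number the libraries but give no date, and whether equal numbers stand for the same day is not stated. The standard errors of Egr1, Egr2 and Fos were the largest of the 10 genes, and differences of several fold in these genes fell short of the threshold below. Over the genes tested, the 2 libraries of a group differed most in #B-20 and #A-59 at 6 h. Chi-square per degree of freedom was 52.05 and 30.26 there, beside 3.36 in parental cells at 6 h and 6.22 to 11.85 at 0 h. The part of this spread in the comparisons at 6 h was not tested.

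**Figure D2:**
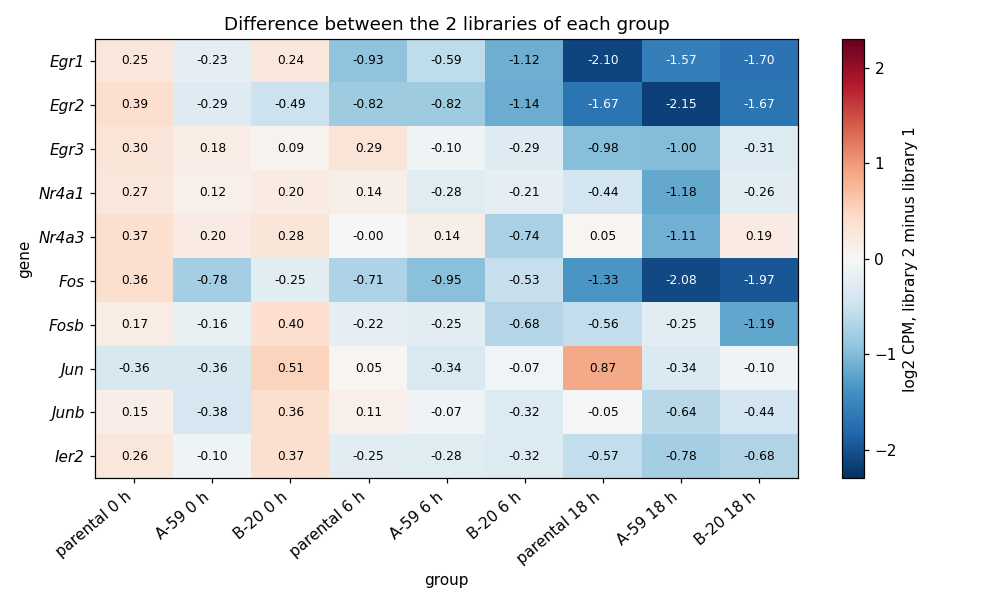
Difference in log2 CPM, library 2 minus library 1, for each gene (rows) and group (columns). At 18 h the differences of Egr1 reach -2.10 and those of Egr2 -2.15, whereas at 0 h those of Egr1 lie between -0.23 and 0.25.

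Stimulated cells were compared with untreated cells of the same genotype in a quasi-likelihood fit over all 18 libraries (edgeR), with p-values adjusted by Benjamini-Hochberg over all genes tested. A gene was called where the adjusted p was under 0.01 and the change exceeded 1 in either direction on the log2 scale. The study's methods give this threshold for results of DESeq2. Calls here are those of edgeR unless DESeq2 is named. Of the 10 genes, 1 was called at 6 h in parental cells (2.62% of all genes tested), while #A-59 had 2 calls (1.39%) and #B-20 had 0 (0.385%), each of the 3 being lower than at 0 h. At 18 h 1 was called in parental cells (10.3% of all genes), again as lower, 0 in #A-59 (8.76%) and 0 in #B-20 (4.8%). The median log2 fold change of the 10 genes was -0.11 at 6 h and 0.03 at 18 h in parental cells, -0.27 and 0.51 in #A-59 and 0.51 and 0.54 in #B-20, beside medians over all genes of 0.01 and 0.04, 0.01 and 0.02, and 0.02 and 0.03. Where edgeR called 0, the genes at an unadjusted p under 0.05 numbered 3 for #A-59 at 18 h, 3 for #B-20 at 6 h and 5 for #B-20 at 18 h, and DESeq2 called 2 (Egr2 and Fos), 0 and 2 (Egr2 and Fos).

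Among the EGR genes Egr3 fell at 6 h. In parental cells its level was 20.7 and 25.5 CPM untreated, 7.08 and 8.67 CPM after 6 h and 25.4 and 12.9 CPM after 18 h. The 6 h libraries lay below all others. In these bulk libraries a lower level per cell and fewer cells with the mRNA cannot be told apart. The log2 fold change at 6 h was -1.55 ± 0.32 (SE) with an adjusted p of 0.00551 (edgeR), and at 18 h it was -0.30 ± 0.31 (SE), within the error. In #A-59 Egr3 went from 15.1 and 17.1 to 5.49 and 5.13 and then to 41.1 and 20.5 CPM, with a log2 fold change at 6 h of -1.59 ± 0.34 (SE) and an edgeR adjusted p of 0.00864. In #B-20 the values were 13.6 and 14.4, 12.5 and 10.2 and 26.7 and 21.6 CPM, and the 6 h value of -0.30 ± 0.33 (SE) was not called (interval -1.02 to 0.43). Both calls at 6 h were lost without any 1 of the 4 libraries compared, with edgeR adjusted p-values of 0.0129 to 0.0711 in parental cells and 0.0266 to 0.118 in #A-59 and log2 fold changes of -1.70 to -1.39 and -1.68 to -1.50.

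Between 6 and 18 h Egr3 rose again. Relative to 6 h its log2 fold change at 18 h was 1.24 ± 0.33 (SE) in parental cells with an edgeR adjusted p of 0.00716, and 2.53 ± 0.34 (SE) in #A-59 with an adjusted p of 5.01e-05. In #B-20 the value of 1.08 ± 0.32 (SE) was not called (edgeR adjusted p = 0.0173). The 2 libraries of 18 h did not overlap with those of 6 h in any genotype. Of the 10 genes, 2 were called between these times in parental cells (13.5% of all genes tested), while #A-59 had 2 calls (9.02%) and #B-20 had 0 (4.45%), where 1 was at an unadjusted p under 0.05 and DESeq2 called 1, which was Egr3. The parental call was lost without 3 of the 4 libraries. Without library 1 of 18 h the log2 fold change was 0.71 with an edgeR adjusted p of 0.0811, without library 1 of 6 h the adjusted p was 0.0560, and without library 2 of 6 h it was 0.0219. That of #A-59 was kept without each library in turn, at 1.94 to 2.95.

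Egr1, the most studied of the family, did not follow Egr3. Parental cells held 47.9 and 57.1 CPM untreated, 46.6 and 24.5 CPM after 6 h and 92.2 and 21.4 CPM after 18 h. The 18 h libraries lay on either side of the untreated level, and the log2 fold changes of -0.56 ± 0.74 (SE) and 0.08 ± 0.74 (SE) were within their errors. In #B-20 Egr1 was at 9.10 and 10.8 CPM untreated, 44.7 and 20.5 CPM after 6 h and 71.5 and 21.9 CPM after 18 h. Each stimulated library of #B-20 was above each untreated library, at log2 fold changes of 1.72 ± 0.85 (SE) and 2.23 ± 0.84 (SE) that were not called (edgeR adjusted p = 0.392 and 0.0678). Clone #A-59 held 1.66 and 1.40 CPM untreated, 1.59 and 1.03 CPM after 6 h and 8.96 and 2.95 CPM after 18 h, and the value of 1.97 ± 1.20 (SE) at 18 h was not called either (edgeR adjusted p = 0.221).

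Egr2, known for a role in lymphocyte tolerance, was a low-level gene that was highest at 18 h in the mean of every genotype. Its untreated levels were 2.28 and 3.02 CPM in parental cells, 1.79 and 1.45 CPM in #A-59 and 1.87 and 1.30 CPM in #B-20. At 18 h they were 8.47 and 2.59, 18.2 and 4.04 and 15.4 and 4.78 CPM. In both clones the libraries of 18 h lay above those of 0 h, at log2 fold changes of 2.77 ± 0.88 (SE) in #A-59 (edgeR adjusted p = 0.0272) and 2.67 ± 0.94 (SE) in #B-20 (0.0506). Neither was called by edgeR. DESeq2 called both, with adjusted p-values of 0.00272 and 0.00575, and edgeR called the value of #A-59 without library 2 of 18 h (3.47, adjusted p = 0.00491). In parental cells the value at 18 h was 0.97 ± 0.90 (SE), and library 2 lay within the untreated range.

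**Figure D3:**
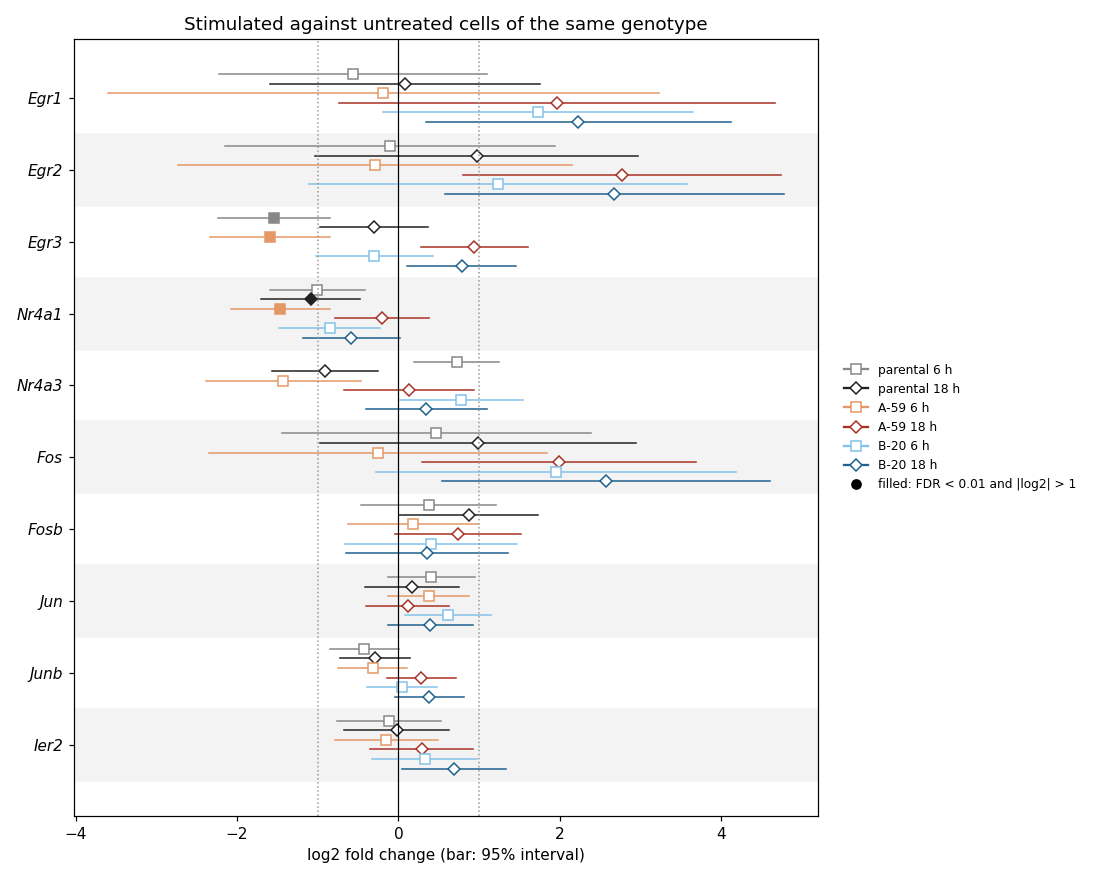
Log2 fold change of each gene at 6 h (squares) and 18 h (diamonds) against untreated cells of the same genotype, with 95% intervals from edgeR; filled symbols passed the threshold and dotted lines mark log2 fold changes of -1 and 1. Filled symbols lie left of 0, at Egr3 (6 h, parental and #A-59) and Nr4a1 (18 h parental, 6 h #A-59), and the intervals of Egr1, Egr2 and Fos are the widest.

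Of the nuclear receptors, Nr4a1 had a negative log2 fold change in all 6 comparisons with untreated cells and passed the threshold in 2 of them. In parental cells it was at 38.8 and 46.7 CPM untreated, 20.2 and 22.3 CPM after 6 h and 23.5 and 17.2 CPM after 18 h. The untreated libraries lay above all stimulated libraries. At 18 h its log2 fold change was -1.09 ± 0.28 (SE) with an edgeR adjusted p of 0.00687, and at 6 h it was -1.01 ± 0.27 (SE), which missed the threshold (adjusted p = 0.0271). In #A-59 Nr4a1 went from 37.7 and 40.9 to 15.5 and 12.7 and back to 47.2 and 20.8 CPM, at -1.47 ± 0.28 (SE) for 6 h against 0 h (edgeR adjusted p = 0.00471) and 1.26 ± 0.29 (SE) for 18 h against 6 h (0.00296). In #B-20 the levels were 29.8 and 34.1, 19.0 and 16.4 and 23.2 and 19.4 CPM, with -0.85 ± 0.29 (SE) and -0.58 ± 0.28 (SE) against 0 h and no call. Leaving out any 1 of the 4 libraries compared ended the call of parental cells at 18 h (edgeR adjusted p 0.0106 to 0.0795) and that of #A-59 at 6 h (0.0183 to 0.0600). The rise of #A-59 from 6 to 18 h was lost without library 1 of 18 h, at 0.55, and without either library of 6 h (edgeR adjusted p = 0.0319 and 0.0443). Gm63180 shares exon bases with Nr4a1 on the opposite strand, and reads of both cannot be told apart in a non-stranded library.

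Nr4a3 was scarce, and in parental cells it was highest at 6 h and lowest at 18 h. Parental cells held 2.10 and 2.73 CPM untreated, 3.98 and 3.97 CPM after 6 h and 1.25 and 1.30 CPM after 18 h. The counts behind these values were 58 and 66, 91 and 97, and 14 and 25. The 3 times did not overlap, and from 6 to 18 h the log2 fold change was -1.63 ± 0.30 (SE) with an edgeR adjusted p of 1.68e-04, kept without each library in turn (-1.66 to -1.61). Against 0 h the values of 0.72 ± 0.25 (SE) at 6 h and -0.91 ± 0.31 (SE) at 18 h were not called (edgeR adjusted p = 0.0697 and 0.0237). In #A-59 6 h was the lowest time instead, with 0.711 and 0.828 CPM untreated, 0.265 and 0.302 CPM after 6 h and 1.15 and 0.482 CPM after 18 h. Its libraries of 6 h, with 7 and 5 counts, were the lowest of the series, and the log2 fold change of 6 h against 0 h was -1.42 ± 0.46 (SE) (edgeR adjusted p = 0.0459), which was not called. In #B-20 Nr4a3 was at 0.803 and 0.992, 1.92 and 1.11 and 1.07 and 1.23 CPM, and no time differed from another beyond the threshold.

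None of the 4 AP-1 genes was called by edgeR in a comparison of times. Fos, whose untreated level was 0.687 and 0.910 CPM in parental cells, 1.05 and 0.570 CPM in #A-59 and 0.535 and 0.434 CPM in #B-20, stood at 2.50 and 0.934, 5.40 and 1.21 and 4.66 and 1.12 CPM after 18 h. Every 18 h library was above every untreated library of its genotype. The log2 fold changes were 0.99 ± 0.90 (SE), 1.99 ± 0.78 (SE) and 2.57 ± 0.93 (SE), with edgeR adjusted p-values of 0.412, 0.0563 and 0.0502. DESeq2 called the values of #A-59 (0.00837) and #B-20 (0.00206). Fosb ranged from 0.336 to 1.52 CPM over the series, with 6 to 29 counts, and its largest value against 0 h was 0.87 ± 0.41 (SE) in parental cells at 18 h (edgeR adjusted p = 0.0968).

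Jun, the central partner of FOS proteins, varied little with time, from 1.61 to 4.92 CPM over all libraries, and its log2 fold changes against 0 h lay between 0.12 (#A-59 at 18 h) and 0.61 (#B-20 at 6 h). Junb, which is induced more slowly and lastingly than Jun in many cells, was at 108 and 119.6 CPM in untreated parental cells, 81.7 and 88.3 CPM after 6 h and 94.8 and 91.4 CPM after 18 h. In parental cells the stimulated libraries of Junb all lay below the untreated ones, at -0.42 ± 0.20 (SE) and -0.29 ± 0.20 (SE), which is under the fold required. In the clones the values against 0 h were -0.32 ± 0.20 (SE) and 0.28 ± 0.20 (SE) in #A-59 and 0.04 ± 0.20 (SE) and 0.38 ± 0.20 (SE) in #B-20. Ier2 was at 43.0 to 101 CPM throughout, and its largest change was 0.69 ± 0.29 (SE) in #B-20 at 18 h (edgeR adjusted p = 0.0918). Junos shares exon bases with Jun, and Prdx2 and Gm65321 with Junb, each on the opposite strand, so that the counts of both genes may include reads of these neighbours.

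The mutants were compared with parental cells at each time. Of the 10 genes 2 were called in #A-59 at 0 h (4.78% of all genes), 2 at 6 h (7.91%) and 0 at 18 h (4.92%). In #B-20 1 was called at 0 h (5.16%), 1 at 6 h (6.73%) and 0 at 18 h (6.21%). All 6 calls were lower than in parental cells and fell on Egr1 and Nr4a3. At 18 h #A-59 had 5 genes and #B-20 had 2 at an unadjusted p under 0.05, and DESeq2 called 1 (Egr1 in #A-59) and 0. In untreated cells the median log2 fold change of the 10 genes was -0.06 in #A-59 and -0.56 in #B-20, beside medians over all genes of -0.01 and 0.00. At 6 h it was -0.57 and 0.27, and at 18 h 0.60 and 0.38, with medians over all genes between -0.02 and 0.01. Both clones are compared with the same parental libraries.

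Egr1 was the gene with the largest difference. In untreated cells its 2 parental libraries held 47.9 and 57.1 CPM, those of #A-59 1.66 and 1.40 CPM and those of #B-20 9.10 and 10.8 CPM. The 3 genotypes did not overlap. For #A-59 the log2 fold change was -5.08 ± 1.03 (SE) with an edgeR adjusted p of 0.00827, and that of #B-20 -2.40 ± 0.84 (SE) with 0.0848, which was not called. At 6 h #A-59 stayed at 1.59 and 1.03 CPM beside 46.6 and 24.5 CPM in parental cells, at -4.70 ± 1.08 (SE) and an edgeR adjusted p of 0.00810, whereas #B-20 lay at 44.7 and 20.5 CPM and overlapped with parental cells. By 18 h the values were -3.19 ± 0.89 (SE) in #A-59 (edgeR adjusted p = 0.0372) and -0.25 ± 0.74 (SE) in #B-20. Each of the 6 libraries of #A-59 was below every library of parental cells and of #B-20. The fit takes 1 estimate of spread per gene over all groups, so that the distance between stimulated libraries also enters the errors at 0 h. Without any 1 of the 4 libraries compared, the edgeR adjusted p of #A-59 was 0.0259 to 0.0765 at 0 h and 0.0147 to 0.0631 at 6 h, and the log2 fold change -5.22 to -4.94 and -5.10 to -4.16. In a fit of only the untreated libraries of parental cells and #B-20, the value of #B-20 was -2.39 with an edgeR adjusted p of 4.41e-07 and was called.

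Nr4a3 was lower in both clones at 0 and 6 h. At 0 h parental cells held 2.10 and 2.73 CPM, #A-59 0.711 and 0.828 CPM and #B-20 0.803 and 0.992 CPM. The clones overlapped with each other and not with parental cells. The log2 fold changes were -1.65 ± 0.31 (SE) in #A-59 (edgeR adjusted p = 8.00e-04) and -1.41 ± 0.33 (SE) in #B-20 (0.00494). At 6 h, when parental cells were at 3.98 and 3.97 CPM, #A-59 was at 0.265 and 0.302 CPM and #B-20 at 1.92 and 1.11 CPM, which gave -3.80 ± 0.37 (SE) (edgeR adjusted p = 2.20e-07) and -1.35 ± 0.28 (SE) (0.00141). By 18 h parental cells had fallen to 1.25 and 1.30 CPM, and neither clone differed beyond the threshold, at -0.61 ± 0.38 (SE) and -0.15 ± 0.34 (SE).

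The difference of #A-59 in Nr4a3 at 6 h was kept without each library in turn, at -3.88 to -3.69. That at 0 h was lost without library 1 of #A-59 (edgeR adjusted p = 0.0242) and without library 2 of parental cells (0.0150). For #B-20 at 0 h the call was lost without library 2 of parental cells (0.0531), library 1 of #B-20 (0.0633) or library 2 of #B-20 (0.0297), and with DESeq2 (adjusted p = 0.0143). At 6 h it was lost without library 1 or 2 of parental cells (edgeR adjusted p = 0.0109 and 0.0117) or library 2 of #B-20 (0.0300).

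The other 8 genes did not pass the threshold in either clone at any time. Jun had positive log2 fold changes in all 6 comparisons, between 0.53 ± 0.27 (SE, #B-20 at 0 h) and 0.75 ± 0.26 (SE, #B-20 at 18 h). In each of the 6, both libraries of the clone were above both parental libraries, which the clones share at each time. Per comparison, 4 to 9 of the 10 genes did not overlap with parental cells, counting both directions. The share of all genes that did so is not given here. Neither this count nor the separation of Jun is therefore read as a result about these genes. The log2 fold changes of Egr3 and Nr4a1 were negative in both clones at 0 h, at -0.52 and -0.72 for Egr3 and -0.12 and -0.42 for Nr4a1, and positive at 18 h, at 0.73 ± 0.31 (SE) and 0.37 for Egr3 and 0.76 ± 0.29 (SE) and 0.09 for Nr4a1, in #A-59 and #B-20. Without library 2 of #A-59 at 18 h, Egr3 (1.14, edgeR adjusted p = 0.00759) and Nr4a1 (1.23, 1.32e-04) were called higher in #A-59 at that time. Junb and Ier2 stayed between -0.29 and 0.63 on the log2 scale in all 6 comparisons.

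**Figure D4:**
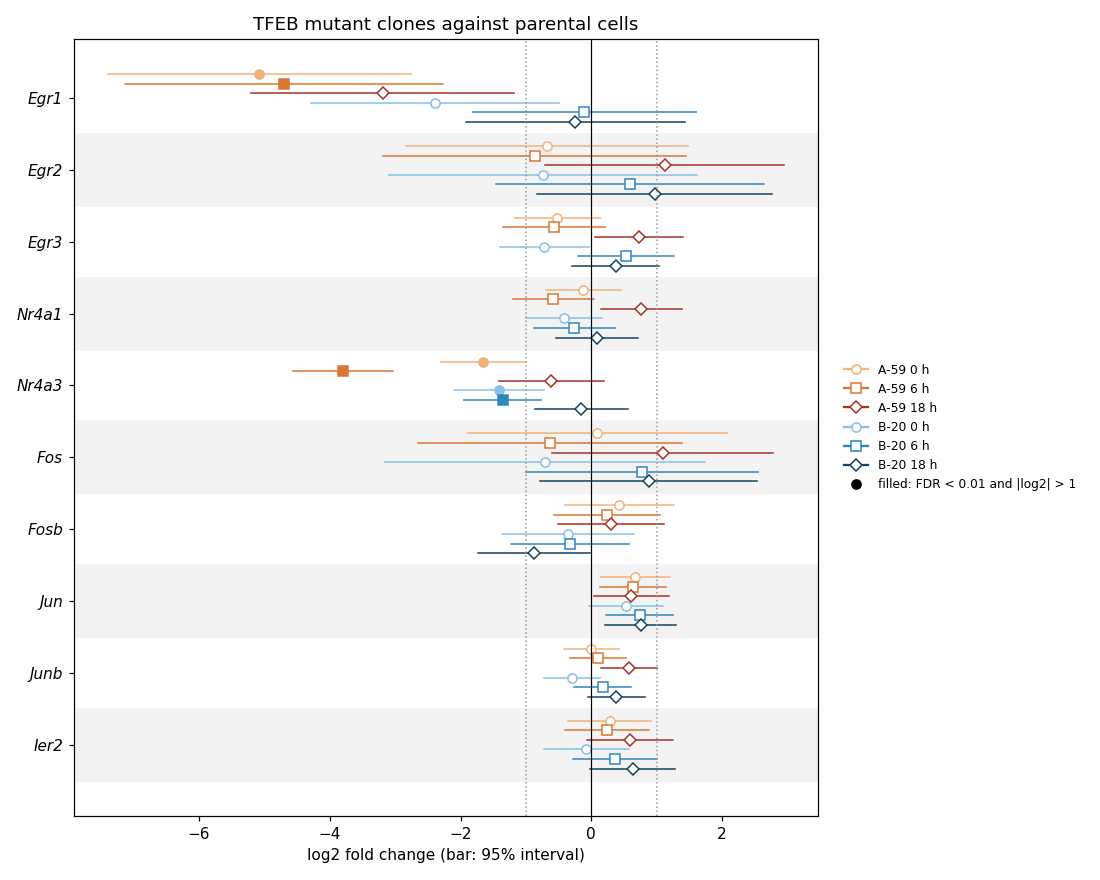
Log2 fold change of each gene in #A-59 (orange to red) and #B-20 (blue) against parental cells at 0 h (circles), 6 h (squares) and 18 h (diamonds), with 95% intervals from edgeR; filled symbols passed the threshold. The filled symbols are Egr1 (#A-59 untreated and after 6 h, -5.08 and -4.70) and Nr4a3 in both clones at 0 and 6 h, with -3.80 in #A-59 at 6 h.

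The clones also differed from each other. Nr4a3 was higher in #B-20 than in #A-59 at 6 h, at 2.45 ± 0.42 (SE) with an edgeR adjusted p of 2.80e-04, which made 1 of the 10 genes (5.82% of all genes). This call was lost without library 1 of #B-20, at 1.97 and an adjusted p of 0.0138. For Egr1 the libraries of #B-20 were above those of #A-59 at every time, at 2.68 ± 1.15 (SE), 4.59 ± 1.09 (SE) and 2.94 ± 0.88 (SE), and edgeR adjusted p-values of 0.158, 0.0110 and 0.0351 missed the threshold. DESeq2 called all of these 3 differences, with adjusted p-values of 0.00750, 2.21e-07 and 0.00128. At 0 and 18 h edgeR called 0 of the 10 genes (3.85% and 4.82% of all genes), with 1 and 3 at an unadjusted p under 0.05.

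Whether stimulation moved the genes differently in the clones was tested as an interaction with the parental response. At 6 and 18 h 0 of the 10 genes were called in either clone, where 0.339% and 0.0326% of all genes were called for #A-59 and 0.131% and 0.163% for #B-20. DESeq2 called 0 in each of the 4 tests, and 1, 2, 1 and 3 genes were at an unadjusted p under 0.05. The closest to the threshold was Nr4a3 in #A-59 at 6 h, at -2.15 ± 0.52 (SE) (interval -3.24 to -1.05, edgeR adjusted p = 0.0405). For Egr3 in #A-59 the difference in response was -0.05 ± 0.47 (SE) at 6 h and 1.25 ± 0.43 (SE) at 18 h (edgeR adjusted p = 0.984 and 0.516). In #B-20 the intervals for Egr3 were 0.25 to 2.25 at 6 h and 0.14 to 2.04 at 18 h. For Egr1 in #B-20 they were -0.26 to 4.83 and -0.37 to 4.67. These intervals are not adjusted for the number of genes tested. Between 6 and 18 h the log2 fold change of Nr4a3 in #A-59 (1.56 ± 0.47 (SE)) exceeded that of parental cells by 3.19 (edgeR adjusted p = 0.00222). This difference rests on 7 and 5 counts in #A-59 at 6 h, and it was fitted only with edgeR over all libraries.

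Across the 18 libraries the log2 levels of some of the 10 genes moved together, given here as a description because the libraries share genotypes, times and library numbers. Pearson's r was 0.939 between Egr2 and Fos, 0.805 between Junb and Ier2, 0.780 between Fos and Ier2 and 0.770 between Egr1 and Nr4a3. Of all genes tested, the one most like Egr2 was Fos and the one most like Fos was Egr2. For Egr1 the nearest were Rab29 (0.922), Nat8l (0.904) and Ctsc (0.904), and for Egr3 Bcl10 (0.933), Itpkb (0.915) and Ripor2 (0.898). Jmy (0.885), Ezr (0.861) and Necap1 (0.855) were nearest to Nr4a1, and a kappa light chain variable segment (0.898), Atad1 (0.880) and Zfp971 (0.864) to Nr4a3.

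Genes around the 10 were followed in lists of relatives and cofactors (12 of 18 tested), of SRF, TCF and CREB factors (11 of 11), of the Ras-ERK and JNK cascade (18 of 19), of ERK feedback and mRNA decay (16 of 17) and of other early response genes (19 of 24). In the 6 comparisons with untreated cells 0 of the 18 genes of the kinase cascade were called, beside 0.385% to 10.3% of all genes, and against parental cells 0 were called in either clone at any time, beside 4.78% to 7.91%. Rasgrp1, the lymphoid activator of Ras, was the single call of that list between 6 and 18 h, in parental cells, at 1.01 ± 0.10 (SE) (edgeR adjusted p = 1.22e-07), and it fell below the required fold without library 1 of 6 h (0.96) or library 2 of 18 h (0.95). Of the SRF and TCF list Elk3 alone was called against untreated cells. Egr4 was at 0 counts in every library, which allows up to 3 counts in each, and Nr4a2 lay at 5.49 to 11.9 CPM.

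Nab2, which encodes a corepressor of the EGR factors and is itself an EGR target, was called higher in 5 of the 6 stimulated comparisons. In parental cells it was at 15.6 and 21.1 CPM untreated, 37.1 and 42.2 CPM after 6 h and 21.3 and 26.6 CPM after 18 h. Untreated #A-59 held 6.98 and 6.06 CPM and #B-20 5.35 and 5.58 CPM, both below parental cells, at -1.48 ± 0.17 (SE) (edgeR adjusted p = 3.57e-06) and -1.74 ± 0.18 (SE) (1.18e-06). After 6 h of stimulation #A-59 reached 23.2 and 24.6 and #B-20 23.3 and 21.9 CPM, at 1.86 ± 0.17 (SE) and 2.05 ± 0.19 (SE) against 0 h. The rise in parental cells at 6 h was 1.11 ± 0.15 (SE), and it fell below the required fold without library 1 of 0 h (0.91). At 18 h the response of #B-20 exceeded the parental response by 1.55 ± 0.24 (SE) (edgeR adjusted p = 0.00500). Its relative Nab1 was at 68.7 to 132 CPM and was not called in any of these comparisons.

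Elk3, a ternary complex factor that binds beside SRF, rose in parental cells from 2.78 and 3.10 to 11.01 and 11.7 CPM after 6 h and 12.04 and 9.59 CPM after 18 h. The stimulated libraries lay above the untreated ones, at 1.95 ± 0.19 (SE) and 1.86 ± 0.20 (SE). In #A-59 Elk3 was still at 3.86 and 4.71 CPM after 6 h and reached 11.2 and 9.05 CPM after 18 h, so that it was lower than in parental cells at 6 h, at -1.42 ± 0.19 (SE) (edgeR adjusted p = 1.11e-05), and the response at 6 h differed by -1.69 ± 0.28 (SE) (0.00345). In #B-20 Elk3 was at 6.55 and 6.47 CPM after 6 h, at 1.07 ± 0.22 (SE), a call lost without any 1 of the 4 libraries (edgeR adjusted p 0.0505 to 0.0888).

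Of the 16 feedback and decay genes parental cells had 1 called at 6 h (2.62% of all genes), #A-59 had 1 (1.39%) and #B-20 had 0 (0.385%). The first, Dusp4, was higher and the second, Spred2, was lower than at 0 h. At 18 h 3 were higher and 1 was lower in parental cells (10.3% of all genes called in either direction), 4 and 1 in #A-59 (8.76%) and 2 and 0 in #B-20 (4.8%). Btg1, Btg2 and Zfp36 were among the higher ones besides Dusp6, and the lower one was Spred1 in both cases. The call of Spred2 was lost without library 2 of #A-59 at 6 h (-0.97), and that of Spred1 in parental cells without either untreated library (edgeR adjusted p = 0.0147 and 0.0128) and without library 2 at 18 h (0.0839). Dusp6 rose at 18 h in all 3 genotypes, from 11.4 and 12.3 to 54.9 and 31.4 CPM in parental cells. It encodes the cytoplasmic ERK phosphatase. The log2 fold changes were 1.85 ± 0.26 (SE) in parental cells, 1.49 ± 0.26 (SE) in #A-59 and 1.64 ± 0.26 (SE) in #B-20, and at 6 h the gene was not called. Dusp4, a nuclear phosphatase of the same family, was highest at 6 h in parental cells, with 0.759 and 0.662 CPM untreated, 5.37 and 4.42 CPM after 6 h and 1.34 and 0.985 CPM after 18 h. At 6 h it was lower in #A-59, at -2.72 ± 0.33 (SE) (edgeR adjusted p = 3.58e-06) and in #B-20, at -1.15 ± 0.29 (SE) (0.00623). The latter was lost without library 2 of #B-20 (-0.83), without library 1 of parental cells (edgeR adjusted p = 0.0693) and without its library 2 (0.0176). Spred1, an inhibitor of Ras signalling, had 2 and 0 counts in untreated #B-20, 0 and 0 after 6 h and 3 and 0 after 18 h, which is at or under the limit of 3 counts, beside 3.58 to 9.60 CPM in parental cells and 2.47 to 7.20 CPM in #A-59.

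**Figure D5:**
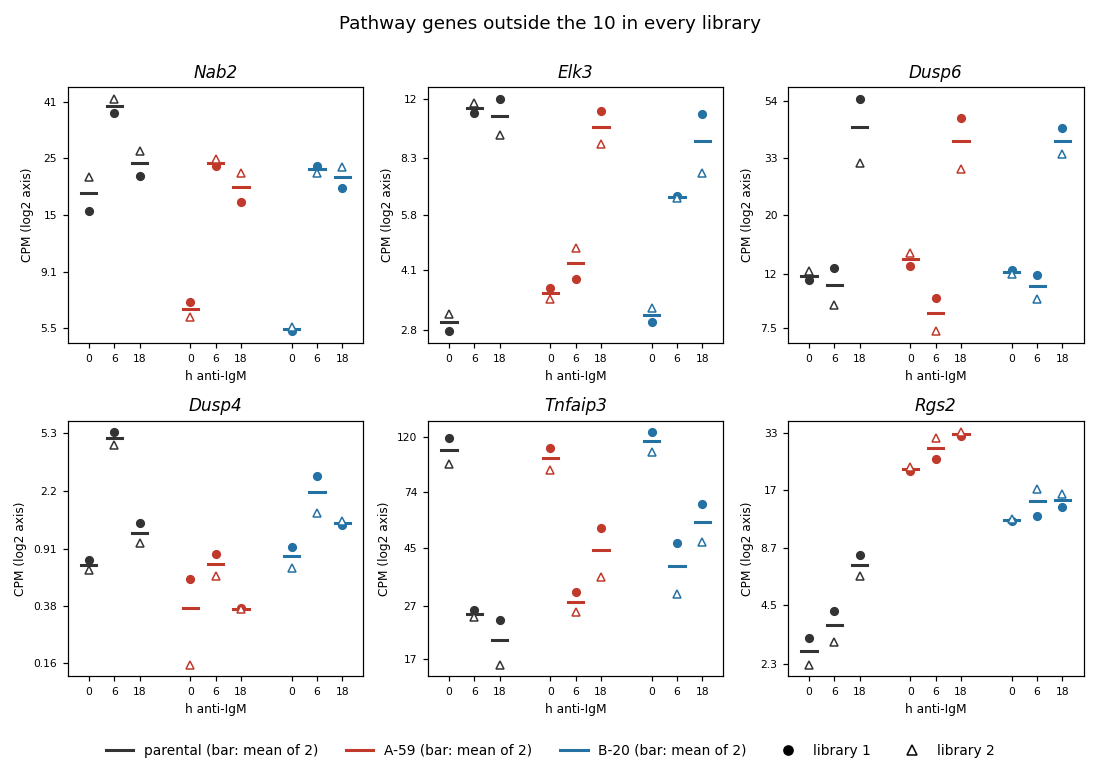
TMM-scaled CPM (log2 axis) of 6 genes from the surrounding lists in every library, drawn as in the plot of the 10 genes. Nab2 is lower in both clones than in parental cells when untreated and still lower at 6 h. Dusp6 is highest at 18 h in all genotypes, and Dusp4 peaks at 6 h in parental cells (5.37 and 4.42 CPM). Rgs2 is higher in both clones at every time.

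Of the 19 other early response genes parental cells had 4 called lower at 6 h, #A-59 had 5 and #B-20 had 2, and 0 were called higher. Of all 15318 genes, 223, 122 and 29 were lower in these comparisons. At 18 h 4, 3 and 2 were lower, beside 728, 703 and 286 of all genes, and 2 were higher in parental cells (Rgs2 and Csrnp1), beside 851 of all genes. Tnfaip3, an inhibitor of NF-κB signalling, was called lower in all 6 stimulated comparisons, from 119 and 94.8 CPM untreated to 26.1 and 24.6 CPM after 6 h in parental cells (-2.08 ± 0.27 (SE)), and the smallest change was -1.02 ± 0.26 (SE) in #B-20 at 18 h. At 18 h the call of #A-59 was lost without library 1 of 0 h (edgeR adjusted p = 0.0293) or library 2 of 18 h (0.0237), and that of #B-20 without any 1 of its 4 libraries (0.0104 to 0.0575). At 6 h that of #A-59 was lost without either library of 6 h (0.0228 and 0.0121) and that of #B-20 without library 1 or 2 of 0 h or library 2 of 6 h (0.0392, 0.0302 and 0.0464). Nfkbia was called lower in 4 of 6, from 235 and 242 to 60.0 and 64.9 CPM after 6 h in parental cells (-1.94 ± 0.14 (SE)), and the call of #B-20 at 6 h fell below the required fold without library 2 of 0 h (-0.996). Irf4 was called lower in 4 of 6, among them parental cells at 18 h (-1.70 ± 0.11 (SE)) and #A-59 at 18 h (-1.09 ± 0.11 (SE)), the latter not without library 2 of 18 h (-0.95). Rgs2, which limits G protein signalling, was higher than in parental cells in all 6 comparisons of the clones, for example 21.2 and 22.3 CPM in #A-59 and 11.98 and 12.2 CPM in #B-20 beside 3.07 and 2.28 CPM untreated (3.01 ± 0.20 (SE) and 2.17 ± 0.21 (SE)). At 18 h that of #B-20 (1.10 ± 0.19 (SE)) was lost without library 2 of parental cells (0.92) or of #B-20 (0.99).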

How the data were processed

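Poly(A) RNA of the 18 WEHI-231 cultures was sequenced as non-stranded single-end TruSeq libraries. Per the labels and the submitters' processing notes, the authors aligned reads with STAR 2.5 to GRCm38 and deposited raw counts per Ensembl gene from featureCounts 1.5.0-p1, without pooling or normalization; the treatment of reads that map to several genes is not given in the sources used here. All rows named a gene.

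Groups were taken from the genotype and time given by the labels. Counts were scaled by TMM (CPM in the text are scaled this way), and 15318 genes passed filterByExpr. The model of edgeR 4.0.16 (R 4.3.3) was fitted with robust quasi-likelihood and 1 mean for each of the 9 groups over all 18 libraries. The threshold was that of the study, which applied it to results of DESeq2. Log2 CPM behind the correlations and the differences between libraries carry a prior count of 2. Log2 fold changes, their errors and 95% intervals come from the fit. The p-values measure only the spread between 2 libraries per group. Alternatives were DESeq2 1.42.0, DESeq2 size factors, other filters and fits of only the groups compared. Others were a replicate term, a GC offset (loess of R) and each library left out in turn. The fit was tested on simulated counts first. Totals per library (median 19846544 counts) limit the precision for Nr4a3, Fos and Fosb, which had under 10 counts in some libraries.

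Named genes were drawn from the 10 genes, Tfeb, the 3 genes most correlated with each of the 10 and the lists. From each list up to 3 genes per direction were drawn in each family of comparisons. They were ranked by the number of comparisons passed and then the mean absolute log2 fold change. Not every gene drawn is described. Btg1, Btg2, Zfp36, Nab1, Nr4a2, Egr4, Dusp4 and Csrnp1 are named where a count turns on them. The 10 genes and the lists were chosen with earlier results of these data known. Promoters come from RefSeq (GRCm38.p6). Transcript lengths, GC content and shared exons come from GENCODE vM39 (GRCm39), which held 93.2% of the gene IDs and 99.6% of the counts, and exons were compared by gene within that annotation.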

Additional observations from a re-analysis of the deposited data

Results flagged for a closer look

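In 4 comparisons of responses the libraries of Nr4a3 all moved up in 1 genotype and down in the other. From 0 to 6 h Nr4a3 had a log2 fold change of 0.72 ± 0.25 (SE) in parental cells and -1.42 ± 0.46 (SE) in #A-59, a difference of -2.15 that missed the threshold (edgeR adjusted p = 0.0405), and in #B-20 it was 0.78 ± 0.36 (SE), which differed from #A-59 by 2.20 (edgeR adjusted p = 0.298). From 6 to 18 h it was -1.63 ± 0.30 (SE) in parental cells and 1.56 ± 0.47 (SE) in #A-59, and this difference of 3.19 passed the test (edgeR adjusted p = 0.00222). Both differences with parental cells share the 6 h libraries, and those of #A-59 held 7 and 5 counts. The difference from 6 to 18 h was not run under the alternatives. From 0 to 18 h Nr4a3 was -0.91 ± 0.31 (SE) in parental cells and 0.35 ± 0.36 (SE) in #B-20, a difference of 1.26 (edgeR adjusted p = 0.249).

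For Egr1 the libraries of #B-20 lay above the untreated ones at 6 h and those of parental cells below, at log2 fold changes of 1.72 ± 0.85 (SE) and -0.56 ± 0.74 (SE). The difference of 2.29 did not pass (edgeR adjusted p = 0.748). No cause was tested for these differences.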

How the results depend on the processing

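Of the 15 calls among the 10 genes, 3 were kept without each library in turn and under all alternatives that held the gene. Egr3 in #A-59 and Nr4a3 in parental cells were kept from 6 to 18 h. Nr4a3 was also kept in #A-59 against parental cells at 6 h. The filter of at least 10 counts in every library left out Nr4a3, so its calls were not evaluated there. No log2 fold change of a called gene changed sign. Under each setting below the numbers are genes called among the 10, with the reported number in brackets. Leaving out a library leaves a group with 1, which is assumed to vary like the other groups. These fits, and those of only the groups compared, kept the genes of the fit over all libraries. Causes were not tested.

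With DESeq2 the numbers were 2 (0) for #A-59 at 18 h against 0 h, 4 (2) for #A-59 at 18 h against 6 h, 2 (0) and 1 (0) for the same comparisons of #B-20, 0 (1) for #B-20 against parental cells at 0 h, 1 (0) for #A-59 against parental cells at 18 h and 1 (0), 2 (1) and 1 (0) for #B-20 against #A-59 at 0, 6 and 18 h. Without a filter on low counts they were 0 (1), 0 (1) and 1 (2) for parental cells at 6 h against 0 h, 18 h against 0 h and 18 h against 6 h, 0 (2) and 1 (2) for #A-59 at 6 h against 0 h and 18 h against 6 h, and 1 (2) for #A-59 against parental cells at 0 and at 6 h. With at least 10 counts required in every library, which leaves out Nr4a3, Fos and Fosb, they were 1 (2) for parental cells at 18 h against 6 h, 1 (0) for #B-20 at 18 h against 6 h, 1 (2) for #A-59 against parental cells at 0 and at 6 h and 0 (1) for #B-20 against parental cells at 0 and at 6 h. With the GC offset they were 0 (1) for parental cells at 6 h against 0 h, 1 (2) for parental cells at 18 h against 6 h, 1 (2) for #A-59 at 6 h against 0 h and 2 (1) for #B-20 against #A-59 at 6 h. Where a fit held no libraries besides the compared ones they were 2 (1) and 1 (2) for parental cells at 6 h against 0 h and 18 h against 6 h, 1 (0) for #B-20 at 18 h against 6 h, 2 (1) for #B-20 against parental cells at 0 h, 1 (0) for the response of #B-20 at 6 h and 1 (0) and 3 (1) for #B-20 against #A-59 at 0 and 6 h. DESeq2 size factors moved no number.

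The labels number the libraries of each group, and deviations from the group means were correlated above 0.1 between equal numbers in 14 of 36 pairs of groups (lowest -0.0258, median 0.0778, highest 0.320), which does not establish a pairing, and the labels name none, so the reported fit has no block. With the replicate block the numbers were 2 (0) and 4 (2) for #A-59 at 18 h against 0 h and against 6 h, 2 (0) for #B-20 at 18 h against 0 h (the added calls being Egr2 and Fos in all 3), 1 (0) for #A-59 against parental cells at 18 h and 2 (1) and 1 (0) for #B-20 against #A-59 at 6 and 18 h. The replicate block together with the GC offset gave the same numbers for these 6 and 0 (1), 0 (1) and 1 (2) for parental cells at 6 h against 0 h, 18 h against 0 h and 18 h against 6 h and 1 (2) for #A-59 at 6 h against 0 h. A replicate block in the stimulated libraries only, chosen after the data were seen, gave 3 (2) for parental cells at 18 h against 6 h (Egr2 added), 3 (0) and 5 (2) for #A-59 at 18 h against 0 h and against 6 h (Egr1, Egr2 and Fos added), 1 (0), 3 (0) and 2 (0) for #B-20 at 6 h against 0 h, 18 h against 0 h and 18 h against 6 h, 2 (1) for #B-20 against parental cells at 0 h, 1 (0) for #A-59 against parental cells at 18 h, 1 (0) for the response of #B-20 at 6 and at 18 h and 1 (0), 4 (1) and 1 (0) for #B-20 against #A-59 at 0, 6 and 18 h.

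Without each library in turn the numbers ranged from 0 to 0 (1) for parental cells at 6 and at 18 h against 0 h, from 1 to 2 (2) for parental cells at 18 h against 6 h, from 0 to 0 (2), 0 to 3 (0) and 1 to 5 (2) for #A-59 at 6 h against 0 h, 18 h against 0 h and 18 h against 6 h, from 0 to 1 (0) for #B-20 at 18 h against 0 h, from 0 to 1 (2), 1 to 1 (2) and 0 to 2 (0) for #A-59 against parental cells at 0, 6 and 18 h, from 0 to 1 (1) for #B-20 against parental cells at 0 and at 6 h and from 0 to 1 (1) and 0 to 1 (0) for #B-20 against #A-59 at 6 and 18 h. The other comparisons stayed at 0.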
